A study of Mus musculus with 2 samples.

Results

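The transcripts of 9 genes whose channels and pumps set the membrane voltage and the calcium level of aldosterone-making cells were examined in the adrenal gland of young mice. The genes are the potassium channels Kcnk1, Kcnk2, Kcnk3, Kcnk9 and Kcnj5, the calcium channels Cacna1h and Cacna1d, the chloride channel Clcn2 and the calcium pump Atp2b3. They were chosen by name for their known part in aldosterone control, not by their measured values, though earlier results of these data were known. Matching was by gene symbol, 9 of the 55536 GENCODE genes measured. The tissue was the whole adrenal gland of female mice of the F1 hybrid strain B6CASTF1/J, 14 days old, with no treatment named in the labels. Total RNA (300 ng a library) was sequenced after reduction of ribosomal RNA, with ERCC spike-ins, synthetic RNAs of known amount. There was 1 group with 2 libraries, called replicate 1 and replicate 2 as labelled, so the design holds no comparison of conditions. The labels give both libraries 1 donor identifier and 1 description of 3 pooled females, yet the tissue of replicate 2 is labelled as that of 1 numbered female. It is thus unclear whether the libraries are from separate animals, and their spread may be technical.

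Aldosterone is made in the zona glomerulosa, the outermost layer of the adrenal cortex. Potassium leak channels keep these cells at a very negative voltage, and angiotensin II or raised blood potassium closes or overrides them. The cells then depolarise, calcium enters through voltage-gated channels, and calmodulin-dependent kinases raise transcription of Cyp11b2, the aldosterone synthase. Chloride leaving through ClC-2, the product of Clcn2, also depolarises them, and plasma membrane pumps such as PMCA3, the product of Atp2b3, carry calcium back out. Mutations in the human counterparts of Kcnj5, Cacna1d, Cacna1h, Clcn2 and Atp2b3 cause forms of primary aldosteronism, in tumours or in families.

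The depth of the gene table was 37586172 expected counts for replicate 1 and 33844950 for replicate 2. The 8 markers of the zona glomerulosa were each present at 1 TPM (a level scaled to transcript length and library total) or more in both libraries. They summed to 319 TPM in replicate 1 and 171 TPM in replicate 2. The libraries stood apart in markers of other tissues. The summed level of 8 liver markers was 319 TPM in replicate 1 and 18601 TPM in replicate 2, that of 8 skeletal muscle markers was 22.5 and 496 TPM, and that of 6 T cell markers was 39.2 and 1.69 TPM. The 6 adipocyte markers were abundant in both libraries, at a summed 2206 and 2456 TPM, led by Fabp4, a fatty acid carrier, at 1033 and 1105 TPM and Ucp1, the uncoupling protein of brown fat, at 659 and 774 TPM. The 6 kidney markers summed to 0.35 and 0.16 TPM, and 3 of them had 0 counts in both libraries. None of the liver, muscle, T cell or adipocyte markers was at 0 counts in both libraries. In whole tissue, fewer cells of a type and less RNA per cell cannot be told apart. Nor can the transcripts of a gene be assigned to any cell type. The levels of the channel and pump genes below are thus of the whole tissue, not of glomerulosa cells.

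Kcnk3 was the most abundant of the 9 genes, and Kcnk1 and Kcnj5 stood near the bottom of the measurable range. Levels in the gene table ran from 195 ± 75.2 TPM (SD, n = 2) for Kcnk3 to 0.11 ± 0.071 TPM for Kcnj5. By mean TPM the order was Kcnk3, Cacna1h, Kcnk9, Clcn2, Kcnk2, Atp2b3, Cacna1d, Kcnk1 and Kcnj5. Of the 9 genes, 7 reached 1 TPM in both libraries, and 8 had a lower TPM in replicate 2 than in replicate 1, as had 79.4% of the 16155 genes compared between the libraries further on. Kcnk3 held 80.7% of the TPM summed over the 9 genes in both libraries. The step from Kcnk3 to Cacna1h was 3.97 ± 0.16 on the log2 scale (SD, n = 2), and the step from Cacna1d down to Kcnk1 was 3.19 ± 0.42, both well beyond the spread. The 6 genes between these steps lay close together. The ranges of neighbours over the libraries overlapped in all 5 pairs among them, and the order of Cacna1h and Kcnk9 and that of Kcnk2 and Atp2b3 turned around between the libraries. Their mean log2 steps, 0.17 ± 0.34 and -0.02 ± 0.52, did not exceed the spread. Compared within each library, Kcnk9 stayed above Clcn2 (0.43 ± 0.32), Clcn2 above Kcnk2 (0.72 ± 0.50) and Atp2b3 above Cacna1d (0.32 ± 0.30), steps larger than their SD. In the second transcript table Kcnk9 was 0.98 times Clcn2 in replicate 2.

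**Figure D1:**
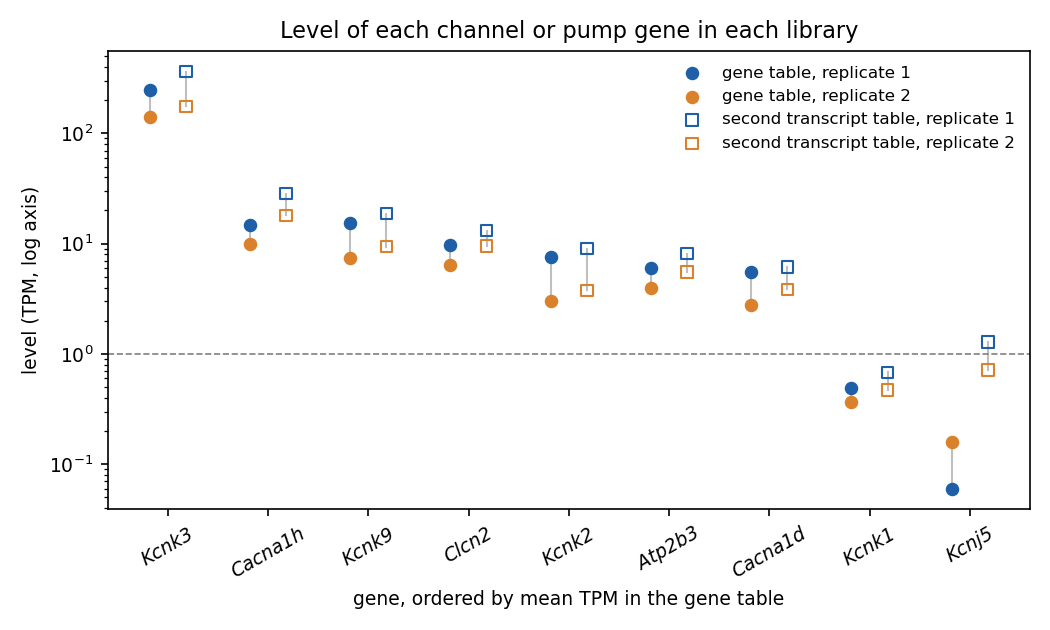
Level in TPM (log axis) of the 9 genes in each library, ordered by mean TPM in the gene table; filled circles are the gene table, open squares the second transcript table summed to genes, and grey lines join the 2 libraries. The dashed line is 1 TPM: Kcnk3 stands at 142 TPM or more in both libraries, 6 genes lie between 2.75 and 28.4 TPM, and Kcnk1 stays under 1 TPM in both tables.

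Two-pore potassium channels are the leak channels of the set. Each subunit carries a pair of pore loops, and the short filter sequence in each loop selects potassium over sodium. To show this shared feature, the coding sequences were searched, in frame and on the coding strand, for 5 codons in a row: a threonine codon, any codon, a glycine codon, a codon that starts with T, and a glycine codon. Kcnk2, Kcnk3 and Kcnk9 had 2 matches each, Kcnk1 and Kcnj5 had 1 each, and the other 4 genes had 0. Among 21562 coding genes, 2.41% held a match and 0.13% held 2 or more. Where a loop gave no match, only these letters were lacking. The matches are shown in capitals with 15 bases of coding sequence on each side, read from GENCODE transcripts on mm10.
Kcnk3, first loop: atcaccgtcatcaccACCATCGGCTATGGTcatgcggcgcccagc
Kcnk9, first loop: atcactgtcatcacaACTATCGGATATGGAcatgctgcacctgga
Kcnk2, first loop: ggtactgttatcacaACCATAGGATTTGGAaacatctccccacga
Kcnk1, first loop: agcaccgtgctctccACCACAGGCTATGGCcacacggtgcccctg
Kcnk3, second loop: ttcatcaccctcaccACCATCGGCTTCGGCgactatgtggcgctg
Kcnk9, second loop: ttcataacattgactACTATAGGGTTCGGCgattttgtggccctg
Kcnk2, second loop: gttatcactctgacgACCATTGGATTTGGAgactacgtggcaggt
Kcnj5, single loop: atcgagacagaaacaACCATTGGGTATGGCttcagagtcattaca
In Kcnk3 and Kcnk9 both matches began at the same coding bases, 277 and 595. Over their whole coding sequences these genes were 70.1% identical across 1152 aligned bases, and the other 5 pairs of two-pore genes in the set were 63.0% to 67.6% identical.

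Kcnk3 encodes TASK-1, an acid-sensitive leak channel that sets the resting voltage of glomerulosa cells (ENSMUSG00000049265.7, chr5:30588170-30625271, plus strand, mm10). It stood at 249 TPM (replicate 1) and 142 TPM (replicate 2), from 26530 and 15810 expected counts. Its mean level was higher than that of 99.0% of protein-coding genes. The level was 6.14 and 7.43 times that of Cyp11b2 in the respective libraries, and 4.46 and 4.54 times in the second table. In the second transcript table Kcnk3 was at 364 and 176 TPM, again the highest of the 9.

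Kcnk9 encodes TASK-3, a close relative that can pair with TASK-1 in 1 channel (ENSMUSG00000036760.7, chr15:72501089-72546340, minus strand). It stood at 15.4 TPM (replicate 1) and 7.41 TPM (replicate 2), from 6506 and 2979 expected counts on a single annotated transcript of 12300 bases. Kcnk3 therefore exceeded Kcnk9 16.1-fold and 19.2-fold in the respective libraries, a log2 ratio of 4.14 ± 0.18 (SD, n = 2). The second table gave 19.4-fold and 18.7-fold. Both libraries and both tables thus placed TASK-1 transcripts an order of magnitude above those of TASK-3 in TPM. The gap is narrower in expected counts, where Kcnk3 had 26530 and 15810. TPM divides by the annotated length, 12300 bases for Kcnk9 and 3811 bases for Kcnk3-201. Both tables use the same transcripts, so the second does not check these lengths.

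Kcnk2 encodes TREK-1, a leak channel opened by stretch, heat and lipids (ENSMUSG00000037624.15, chr1:189207930-189402273, minus strand). It stood at 7.55 TPM (replicate 1) and 3.05 TPM (replicate 2), from 655 and 240 expected counts, and Kcnk3 exceeded it 32.9-fold and 46.6-fold. A large part of this level was assigned to Kcnk2-203, a transcript that lacks a coding exon of 118 bases and is annotated as a target of nonsense-mediated decay. Its annotated coding sequence is 456 bases, against 1266 bases in Kcnk2-209. The skipped exon (chr1:189295594-189295711, minus strand) is shown because its last 7 bases, in capitals, open the first filter match above, so a transcript without it does not hold that match whole.
Kcnk2, exon of 118 bases: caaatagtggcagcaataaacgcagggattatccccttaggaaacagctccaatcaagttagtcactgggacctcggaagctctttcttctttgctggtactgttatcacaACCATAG
Among transcripts spanning the site, the exon was included in 40.8% and 53.1% of the TPM in the first transcript table, and in 61.7% and 87.8% in the second. In each library the second table gave the higher inclusion, and in each table replicate 2 did, so estimates from the same reads spread widely. Kcnk2-203 has 55 bases found in no other transcript of the gene. First-exon use was as unsettled. The first exon furthest upstream (chr1:189402113-189402273) carried 74.3% and 72.5% of the TPM in the first table, and 52.6% and 26.0% in the second.

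Kcnk1 encodes TWIK-1, a weakly active two-pore channel (ENSMUSG00000033998.9, chr8:125995170-126030685, plus strand). It stood at 0.49 TPM (replicate 1) and 0.37 TPM (replicate 2), from 29 and 26 expected counts. Counting error alone put these counts between 19.4 and 41.6 and between 17.0 and 38.1 (exact 95% Poisson intervals). The level was thus low in both libraries. Such an interval excludes 0 for any count above 0, so it does not test whether Kcnk1 is expressed. Gm45875, an antisense gene, overlaps Kcnk1 over 1438 bases, and whether the counting used strand is not given in the sources used here.

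Kcnj5 encodes GIRK4, an inward rectifier opened by G proteins and the gene most often mutated in human aldosterone-producing adenomas (ENSMUSG00000032034.6, chr9:32314707-32344350, minus strand). The gene table gave 8 expected counts in replicate 1 and 22 in replicate 2, or 0.06 and 0.16 TPM. Its exact 95% Poisson intervals were 3.45 to 15.8 counts and 13.8 to 33.3 counts. The second table gave 95.3 and 55.0 estimated counts, or 1.28 and 0.71 TPM, so the direction between the libraries was opposite there. The excess sat on Kcnj5-203, which had 77.9 and 27.3 estimated counts in the second table and 0.01 and 0 in the first. That transcript has a coding sequence of 318 bases against 1257 bases in Kcnj5-201, and no base of its own. Kcnj5-201 and Kcnj5-202, with the full coding sequence, summed to 0.14 and 0.25 TPM in the second table. In both tables, then, full-length Kcnj5 transcripts were under 1 TPM.

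The partner subunits of GIRK4 were as scarce. Kcnj3, which encodes GIRK1, stood at 0.17 TPM (replicate 1) and 0.16 TPM (replicate 2). Kcnj6 (GIRK2) was at 0.23 and 0.14 TPM, and Kcnj9 (GIRK3) at 0.07 and 0.03 TPM. Kcnj8, the pore of a vascular ATP-sensitive channel, was the only one of the 14 other inward rectifier genes at 1 TPM or more in both libraries, at 5.47 and 5.21 TPM.

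The calcium channels of the set are a T-type and an L-type channel. Cacna1h encodes Cav3.2, a T-type channel that opens at small depolarisations (ENSMUSG00000024112.16, chr17:25374285-25433783, minus strand). It stood at 14.7 TPM (replicate 1) and 9.84 TPM (replicate 2), from 3412 and 1972 expected counts. The related T-type genes were far lower. Cacna1g (Cav3.1) was at 0.75 and 0.33 TPM, so Cacna1h exceeded it 19.5-fold and 29.8-fold (21.3-fold and 50.2-fold in the second table), and Cacna1i (Cav3.3) was at 0.24 and 0.14 TPM. In the second table Cacna1h was at 28.4 and 18.1 TPM, 1.94 and 1.84 times its gene-table level, where the median gene gave 1.41 and 1.46. Cacna1h-201 lies whole within Cacna1h-205, which is 10 bases longer. The first table gave Cacna1h-205 79.5% and 72.4% of the TPM and Cacna1h-201 0%, while the second gave 37.3% and 32.7% to the former and 14.3% and 20.1% to the latter, a split between near-identical sequences with the same coding length of 7077 bases. Shorter transcripts (Cacna1h-204, Cacna1h-207 and Cacna1h-209) took most of the rest in the second table. Protein-coding transcripts held 81.6% and 75.1% of the gene's TPM in the first table, and 66.4% and 54.7% in the second.

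Cacna1d encodes Cav1.3, an L-type channel that opens at more negative voltages than its relative Cav1.2 (ENSMUSG00000015968.17, chr14:30039939-30491455, minus strand). It stood at 5.52 TPM (replicate 1) and 2.75 TPM (replicate 2), from 1147 and 545 expected counts. Cacna1h exceeded it 2.65-fold and 3.58-fold, and 4.64-fold and 4.71-fold in the second table. Cacna1c, which encodes Cav1.2, was at 21.7 and 8.95 TPM, or 3.93 and 3.25 times Cacna1d. Of these L-type genes, Cav1.2 transcripts were the more abundant in both libraries, and in the second table by 5.88-fold and 3.99-fold. Cacna1c was above Cacna1h in replicate 1 and below it in replicate 2.

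Cacna1d has a pair of mutually exclusive coding exons of 104 bases, a known splice choice in a pore-lining segment of the channel's first repeat, where human mutations of primary aldosteronism have been found. The exons are shown with the 22 bases at which they differ in capitals (78.8% identical, same length, minus strand).
Cacna1d, upstream exon (chr14:30171956-30172059): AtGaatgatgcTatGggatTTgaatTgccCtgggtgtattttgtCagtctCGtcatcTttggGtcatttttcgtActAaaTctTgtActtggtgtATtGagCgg
Cacna1d, downstream exon (chr14:30171296-30171399): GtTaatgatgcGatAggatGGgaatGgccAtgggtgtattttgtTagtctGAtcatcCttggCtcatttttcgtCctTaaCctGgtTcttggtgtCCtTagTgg
Of the TPM of transcripts with either exon, the downstream exon had 59.1% in replicate 1 and 69.8% in replicate 2 in the first table, and 65.5% and 67.2% in the second. Transcripts with either exon were thus found, and the downstream exon held the larger share in each library and table. Most of the upstream exon's TPM was on Cacna1d-208, annotated as a target of nonsense-mediated decay. In the first table that was 0.91 of 1.32 TPM (replicate 1) and 0.35 of 0.52 TPM (replicate 2). The only coding transcript with this exon above 0 TPM, Cacna1d-209, was at 0.41 and 0.17 TPM there. Cacna1d-208 also carried most of the TPM with the 45-base exon below. Further along, an optional exon of 45 bases was included in 36.8% and 25.0% of the TPM of transcripts spanning it in the first table, and in 36.7% and 28.2% in the second. An exon of 27 bases was included in 91.5% and 92.1%, and in 95.8% and 91.0%. These shares come from full-length transcript estimates, not from reads across single junctions.

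The full Cacna1d level was not all coding. Protein-coding transcripts held 42.2% and 50.0% of its TPM in the first table, and transcripts with a retained intron held 40.7% and 24.5%. Cacna1d-212, a retained-intron transcript, took 28.4% and 16.2% there but 4.53% and 1.21e-06% in the second table. The gene lies opposite to Dcp1a over 11921 bases and to Chdh over 589 bases, 2 protein-coding genes whose reads could be mixed with it if strand was not used.

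Clcn2 encodes ClC-2, a chloride channel opened by negative voltage (ENSMUSG00000022843.17, chr16:20702964-20717746, minus strand). It stood at 9.75 TPM (replicate 1) and 6.42 TPM (replicate 2), from 827 and 559 expected counts. Coding transcripts, here Clcn2-201 alone, held 48.5% and 61.2% of that TPM, and retained-intron transcripts 48.4% and 33.6%. The coding level was thus 4.73 and 3.93 TPM in the first table, and 5.52 and 4.55 TPM in the second. Clcn2-203, a retained-intron transcript of 600 bases with no base of its own, held 18.2% and 8.31% in the first table and 11.1% and 2.43% in the second. An exon of 60 bases was included in 85.1% to 89.1% of the TPM of transcripts spanning it, over both libraries and tables. The only transcript that skips it, Clcn2-207, is a retained-intron transcript of 999 bases without a coding sequence, so no coding transcript lacked the exon. Hepacam and Mlc1, which encode membrane partners of ClC-2 in glia, had 7 expected counts or fewer in each library.

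Atp2b3 encodes PMCA3, a plasma membrane calcium pump (ENSMUSG00000031376.15, chrX:73503086-73571005, plus strand). It stood at 5.96 TPM (replicate 1) and 3.99 TPM (replicate 2), from 910 and 581 expected counts. The pump has a known splice choice near its end, where an exon of 154 bases shifts the reading frame and gives the short form, with a different calmodulin-binding tail. The annotated coding sequence is 3519 bases with the exon (Atp2b3-203) and 3660 bases without it (Atp2b3-202). The exon (chrX:73559864-73560017, plus strand) is shown because its inclusion changes the tail.
Atp2b3, exon of 154 bases: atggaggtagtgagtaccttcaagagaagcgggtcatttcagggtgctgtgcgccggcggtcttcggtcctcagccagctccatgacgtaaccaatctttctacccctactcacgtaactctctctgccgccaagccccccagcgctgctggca
Of the TPM of these 2 transcripts, the form with the exon had 92.9% in replicate 1 and 77.7% in replicate 2 in the first table, and 89.7% and 84.5% in the second. The short form was therefore the main one in each library and table. Atp2b3-201, which ends before the site, held 15.4% and 12.4% of the gene's TPM in the first table and 20.7% and 24.7% in the second.

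**Figure D2:**
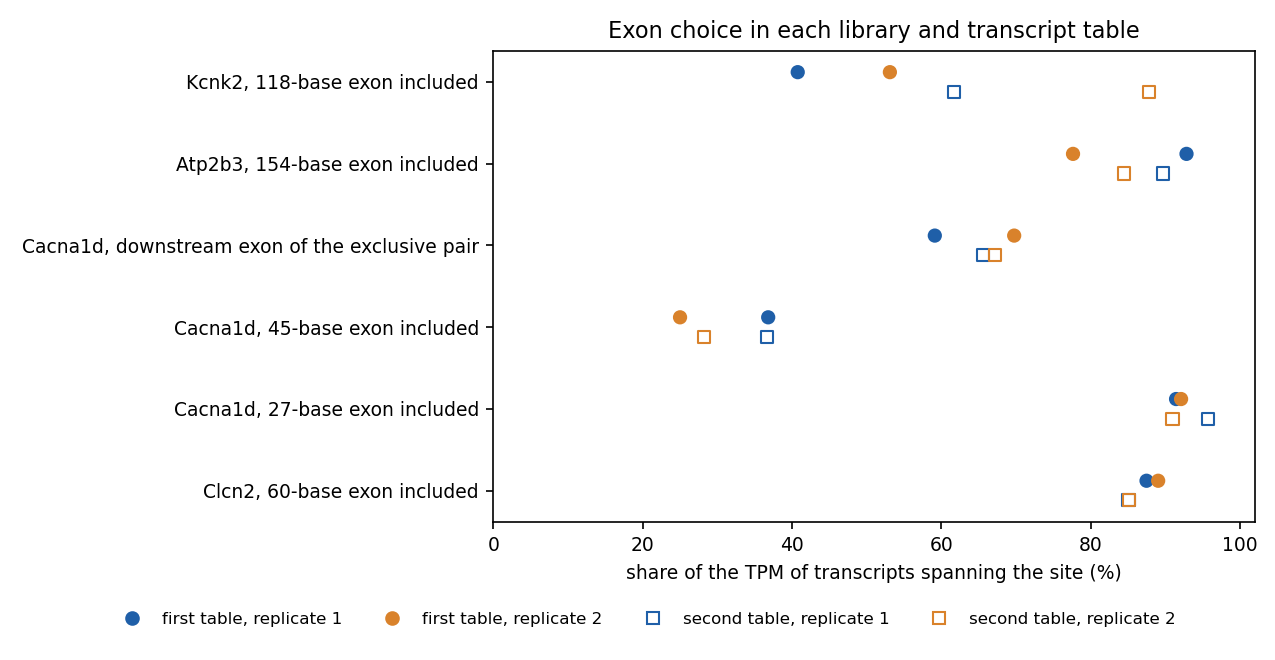
Share of TPM (percent) that includes an optional exon, out of the transcripts that span the site. The Clcn2 exon is skipped only by a non-coding transcript. For the exclusive Cacna1d pair it is the share of the downstream exon out of transcripts with either exon. With Cacna1d-206 counted too, which skips both, that share in replicate 2 is 58.0% in the first transcript table and 50.8% in the second. Blue is replicate 1, orange is replicate 2, circles are the first transcript table and squares the second. Inclusion of the Kcnk2 exon ranges from 40.8% to 87.8%, while that of the Atp2b3 exon lies between 77.7% and 92.9%.

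**Figure D3:**
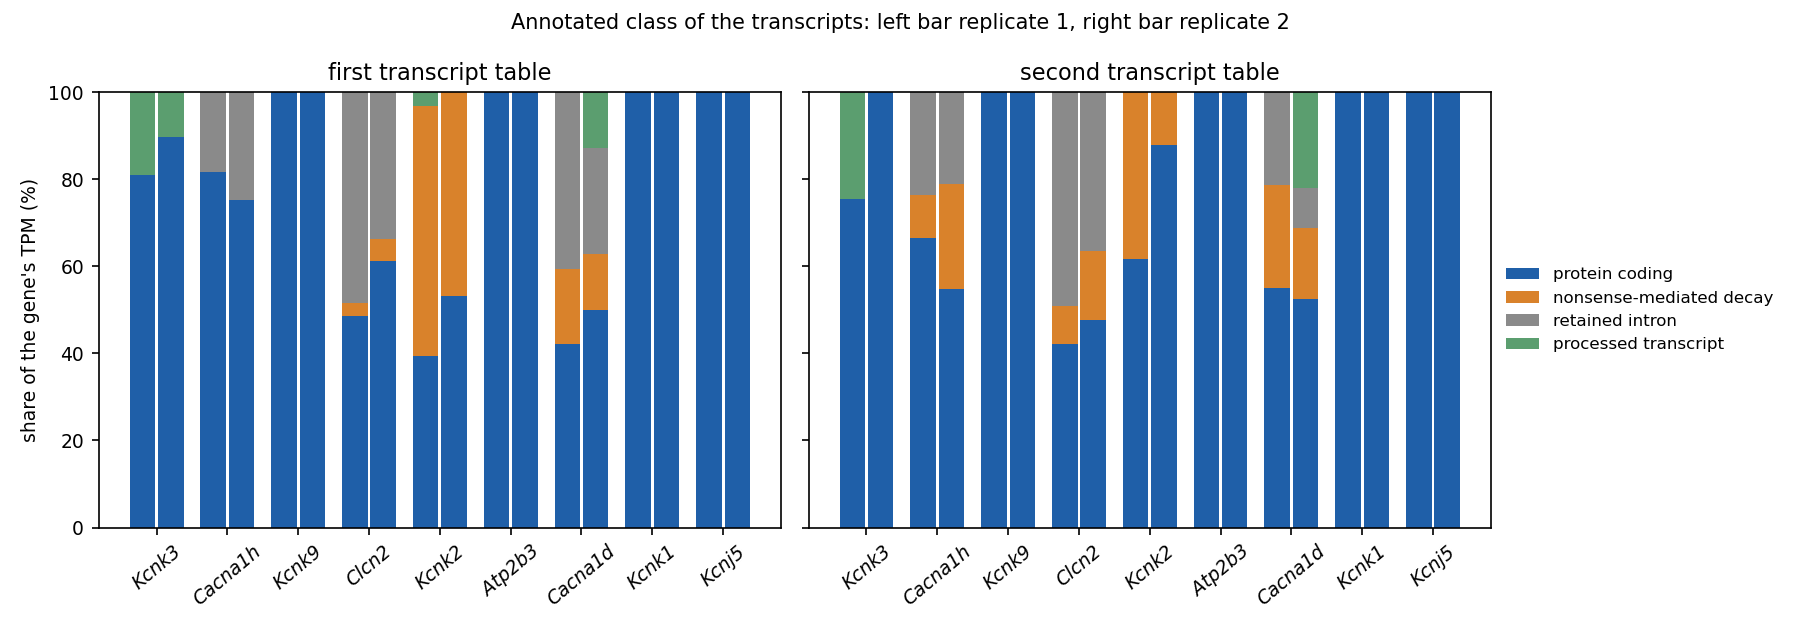
Share of each gene's TPM (percent, from 0 to 100) by the annotated class of its transcripts, in the first and the second transcript table; the left bar of a pair is replicate 1 and the right bar replicate 2. Kcnk9, Atp2b3, Kcnk1 and Kcnj5 have coding transcripts only in the annotation, and Clcn2, Kcnk2 and Cacna1d show the largest non-coding shares in the first table.

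Kcnk3 itself carried a short non-coding transcript. Kcnk3-202, a processed transcript of 507 bases with 165 bases of its own, received 665 and 196 expected counts in the first table, or 19.0% and 10.2% of the TPM, and 590 and 0 estimated counts in the second, or 24.6% and 0%. Because TPM divides by length, these few counts weigh more in TPM than in counts, where they were 2.51% and 1.24% of the first table's total for the gene. Counting the coding transcript alone, Kcnk3 stood at 201 and 128 TPM in the first table and 274 and 176 TPM in the second. Kcnk3 thus ranked first among the 9 genes with or without it.

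Within their families, the members differed in rank. Kcnk3, Kcnk9 and Kcnk2 were the most abundant two-pore genes by mean TPM in the gene table. Kcnk5, an alkaline-activated channel, followed at 3.78 TPM (replicate 1) and 2.07 TPM (replicate 2). In the second table Kcnk5 was below Kcnk2 in replicate 1 (5.42 against 8.99 TPM) and above it in replicate 2 (4.09 against 3.77 TPM). Coding transcripts of Kcnk2 alone held 2.98 and 1.62 TPM in the first transcript table, and those of Kcnk5 were not counted. In the gene table Kcnk6 was at 0.65 and 0.59 TPM. There 4 of the 10 other two-pore genes (Kcnk7, Kcnk15, Kcnk16 and Kcnk18) had 0 counts in both libraries, where the floor is 3 counts a library. By contrast Clcn2, counted over all its transcripts, lay within a group of chloride channels and exchangers of like level. Its coding transcripts alone held 4.73 and 3.93 TPM in the first transcript table, and those of these relatives were not counted. Clcn4 was at 15.2 and 11.3 TPM, Clcn3 at 12.5 and 9.41 TPM, Clcn7 at 9.54 and 8.57 TPM and Clcn5 at 8.79 and 5.73 TPM, all ClC family exchangers of intracellular membranes. Atp2b3 was the third of the 4 plasma membrane calcium pumps. Atp2b1, the widely expressed PMCA1, exceeded it 2.74-fold and 3.26-fold, and Atp2b4 (PMCA4) exceeded it 1.64-fold and 1.96-fold, while Atp2b2 (PMCA2) was at 1.58 and 1.04 TPM. The pump of the endoplasmic reticulum, Atp2a2, was at 58.8 and 50.9 TPM.

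**Figure D4:**
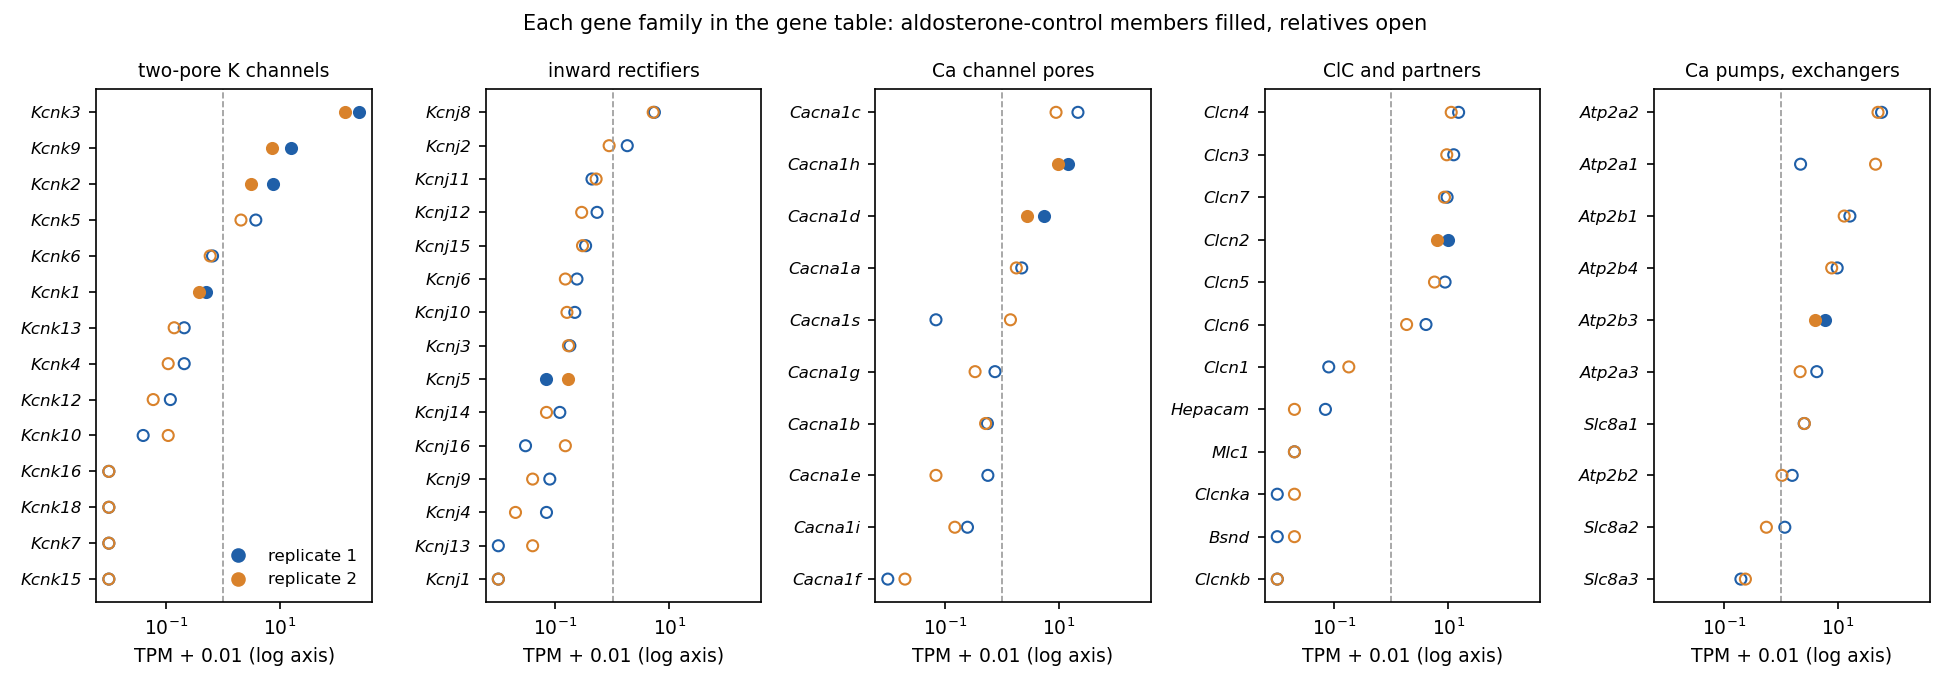
Level of each family in the gene table as TPM + 0.01 (log axis, offset added so that 0 can be drawn); filled circles are the 9 genes described here, open circles their relatives, blue replicate 1 and orange replicate 2, and the dashed line marks 1 TPM. Kcnk3 stands apart at the top of the two-pore channels, Kcnj5 lies among low inward rectifiers, and Clcn2 lies among relatives of like level; Atp2a1 and Cacna1s, genes of skeletal muscle, are far higher in replicate 2.

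Partner subunits and the signalling genes around the channels were measured too. Of 8 auxiliary calcium channel subunits, 4 reached 1 TPM in both libraries, led by Cacna2d1 at 29.7 and 13.3 TPM and Cacnb2 at 15.5 and 7.50 TPM. In the list of 31 genes from angiotensin II and calcium to Cyp11b2, 28 reached 1 TPM in both libraries. Agtr1a, an angiotensin II receptor, was at 67.8 and 39.5 TPM, Agtr1b at 4.22 and 2.29 TPM, and Cyp11b2 at 40.5 and 19.1 TPM. The calmodulin gene Calm2 stood at 164 and 106 TPM, and Nr4a1, an immediate early transcription factor that acts on steroidogenic promoters, at 130 and 39.4 TPM.

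The only comparison between samples that the design allows is of replicate 2 with replicate 1, which sets 1 library against 1 and has no replicate check and no p-value. Counts were scaled by TMM, which puts the median gene at a log2 difference of 0.00, and each fold is given with its Clopper-Pearson interval (95%), which covers counting error only. Of the 9 genes, 8 had a mean count of at least 20. Of these 8, 2 were over 1.5-fold lower in replicate 2, where 8.73% of 16155 genes were, and 0 were over 1.5-fold higher, where 14.4% of genes were. Kcnk2 was lower 1.94-fold (1.67 to 2.26) and Kcnk9 1.55-fold (1.48 to 1.62). Cacna1d lay at the threshold, 1.49-fold lower (1.35 to 1.66).

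The other members differed less. Cacna1h was 1.23-fold lower in replicate 2 (1.16 to 1.30) and Kcnk3 1.19-fold lower (1.17 to 1.21). Atp2b3 was 1.11-fold lower (1.00 to 1.24) and Clcn2 1.05-fold lower (0.94 to 1.17), so counting error covered the whole of the Clcn2 difference. Kcnk1 was 1.26-fold higher in replicate 2 (0.715 to 2.22), so its interval included no difference, and with library totals and the 2 TPM scales it was lower there. Kcnj5, under the minimum count, was 3.68-fold higher in replicate 2 (1.66 to 10.1) in the gene table, and lower in the second table. The median over the 8 genes was -0.27 on the log2 scale, beside 0.00 for all genes tested, and 7 of the 8 lay below 0. Under spike-in scaling, library totals and the 2 TPM scales the median of all genes itself lay between -0.28 and -0.41, and 7 of the 8 genes were below that median under each of them, Kcnk1 being the exception. With spike-in scaling 20.04% of all genes and 3 of the 8 were over 1.5-fold lower, and 9.68% and 0 were higher.

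Other gene groups differed between the libraries as well. The 8 zona glomerulosa markers had a median of -0.40, with 2 over 1.5-fold lower (Cyp11b2, 1.57-fold, and Dab2, 1.51-fold) and 0 higher. The 7 cortex markers had a median of -0.80 with 5 lower, the 5 zona fasciculata markers -1.03 with 5 lower, and the 11 chromaffin cell markers of the adrenal medulla -0.68 with 8 lower. Endothelial markers had a median of 0.08, with 5 of 5 within 1.5-fold. Neuron markers were split around a median of -0.09, with 2 of 6 higher (Prph and Tubb3) and 2 lower (Snap25 and Rbfox3). Adipocyte markers had a median of 0.64 with 4 of 6 higher, a count that was 0 with spike-in, library-total or TPM scaling. Medians above 0 were also seen for smooth muscle and pericyte markers (0.46, with 2 of 6 higher) and Schwann cell markers (0.43, with 2 of 5 higher), and no marker of these 3 groups was over 1.5-fold lower. The part of these groups, and of the liver, muscle and T cell markers given above, in the differences of the channel genes was not tested. Of 30 angiotensin II and calcium signalling genes over the minimum, 8 were lower, 0 were higher and the median was -0.20. Auxiliary calcium channel subunits had a median of -0.27 with 2 of 7 lower. Among other calcium channel pores, Cacna1c was 1.84-fold lower, Cacna1e was at 174 and 20 counts, and Cacna1s, the pore of skeletal muscle, was at 12 and 193 counts.

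**Figure D5:**
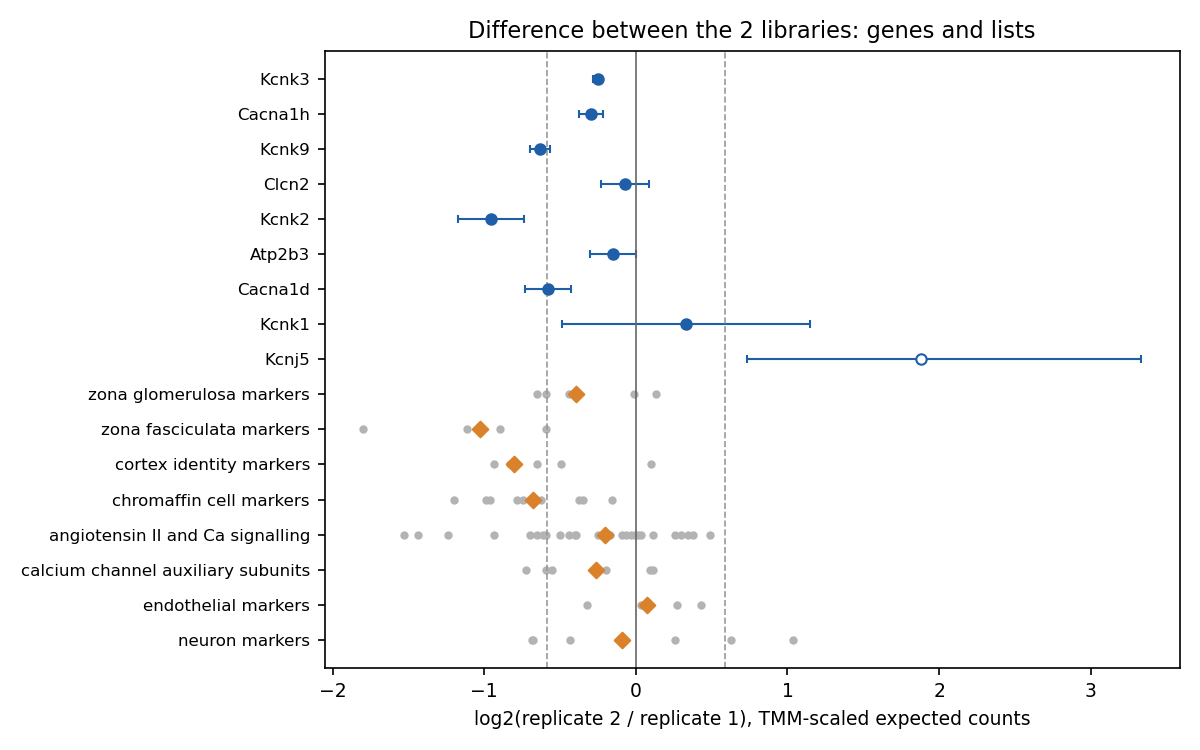
Difference between the libraries as log2 of replicate 2 over replicate 1, from TMM-scaled expected counts. Blue points are the 9 genes with 95% Clopper-Pearson intervals (open where the mean count is under 20), grey points are the genes of a list over that minimum, diamonds are list medians and dashed lines mark 1.5-fold; Kcnk2 lies furthest to the left of the 9, and the fasciculata median lies left of all 9.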

How the data were processed

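Gene and transcript tables of 2 total RNA-seq libraries were used. The labels and the notes deposited with them give the assembly mm10 and GENCODE M21. Per the deposited notes, a transcriptome alignment underlies the gene table and 1 transcript table (the first), and an index of transcripts searched with the read files underlies the other (the second). Tools and strand use: not given in the sources used here. Per the file headers, the authors' gene and first transcript tables hold expected counts and TPM, and a percent of the gene's TPM for each transcript. In the second, the deposited columns are estimated counts and TPM. Expected counts were rounded to whole numbers. Each table's TPM covers every entry in it, and protein-coding genes outside the mitochondrial genome hold 29.0% and 27.9% of the gene table's.

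The 9 members, the 21 other gene lists (180 genes, all matched) and the alternatives were chosen with earlier results of these data known. Named beside the members were, for each list, up to 4 genes of highest mean TPM, up to 4 over 4-fold apart, the closest relatives, and transcripts with at least 10% of a member's TPM in either table. A few further genes and transcripts were named after their values were seen. The values of 1 list are not reported here. The mean ± SD is over 2 libraries. Counts were scaled with TMM (edgeR 4.0.16, R 4.3.3), with a prior count of 0.5, a minimum mean count of 20 and mitochondrial genes left out. DESeq2 1.42.0 size factors were an alternative. Intervals used scipy 1.17.1, and coding sequences were aligned with Biopython 1.88. The floor for 0 counts was set at 3 counts (7.98e-06% and 8.86e-06% of the libraries). The fold calls were tested on simulated counts.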

Additional observations from a re-analysis of the deposited data

How the results depend on the processing

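No paired analysis was possible because the study has 1 group. The count of genes at 1 TPM or more in every library used was 7 in the main setting and 7 or 8 under each alternative run. Of the 36 pairs of genes, 34 kept their order of level under the second table and 33 with coding transcripts only, the last chosen after the data were seen. With coding transcripts only, Kcnk9 passed Cacna1h (mean 11.4 against 9.67 TPM), and Atp2b3 (4.98 TPM) passed Clcn2 (4.33 TPM) and Kcnk2 (2.30 TPM). TPM over protein-coding genes (36 pairs) multiplies each library by a single factor, and each library alone (35 pairs in either) is part of the mean it is set against. Those settings could hardly change the order, so they do not test it. The number over 1.5-fold lower in replicate 2 was 2 in the main setting. It was 5 with library totals, 4 with log2(TPM + 1), 5 with log2(TPM + 0.1) and 0 at a 2-fold threshold. Over all genes the share lower was 24.9%, 18.2%, 31.3% and 2.56% in those settings, and at 1.5-fold 9.68%, 8.97%, 6.71% and 8.32% were higher with spike-in scaling, library totals, log2(TPM + 1) and log2(TPM + 0.1). The number over 1.5-fold higher was 1 with a mean count of at least 10 and 1 with no count minimum, in both cases Kcnj5. Over all genes 15.3% and 20.8% were higher in these respective settings. The median difference was -0.55 with spike-in scaling, -0.62 with library totals, -0.67 with log2(TPM + 1) and -0.70 with log2(TPM + 0.1). These 4 settings do not centre the median gene. TPM taken over protein-coding genes is higher for every gene by construction. In the second table, the share of the leading transcript moved by more than the SD in 4 of the 9 genes. These were Kcnk2-203 at 25.2%, Kcnj5-201 at 17.1%, Cacna1h-205 at 35.0% and Clcn2-201 at 44.8%, and the cause was not tested. With 2 libraries, the share in either library alone lies within the SD of the mean by construction, so it could not count as moved. Kcnk1 and Kcnj5 rest on 29 counts or fewer in each library of the gene table, and with 2 libraries no difference can be tested.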
